A study of Mus musculus with 11 samples.

Results

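The 40 genes described here encode lysosomal cathepsins and other peptidases, glycan and lipid hydrolases with their activator proteins, lysosomal membrane proteins, progranulin, cystatin C and the transcription factor TFEB. They were taken as a list of symbols, and each was represented by the brightest of its probes on a whole-genome mouse array. Of the 40 genes, 39 had a matching probe and 38 passed the filter on dim probes, among 26082 features tested in all. The exceptions were Cd68, the phagocyte glycoprotein macrosialin, for which no probe matched, and Atp6v0d2, a subunit of the lysosomal proton pump, whose 2 probes were well above background in 0 and 2 of 22 channels.

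Lysosomes are acidic compartments in which hydrolases break down proteins, glycans and lipids taken up by endocytosis and phagocytosis or delivered by autophagy. Most of their enzymes reach them through mannose 6-phosphate receptors, and heavily glycosylated membrane proteins such as LAMP1 and LAMP2 line their inner face. In injured brain, microglia and infiltrating macrophages are the main phagocytes and are rich in lysosomal proteases, while neurons and astrocytes carry lysosomes as well.

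The cortex of the right hemisphere was profiled in 22 mice of 5 to 7 months on the C57/Bl6J background, in 4 groups. TC mice (n = 6) carried the GFA2-tTa/TetO-VP16-CREB transgenes and had a cryolesion, WTC mice (n = 5) were wild type with a cryolesion, T mice (n = 5) were transgenic and unlesioned, and WT mice (n = 6) were wild type and unlesioned. The cryolesion was made by holding a dry ice pellet on the brain surface for 30 s, and the cortex was collected after 3 days. GFA2 denotes a promoter fragment of the astrocyte gene Gfap, which drives the tTA activator, and tTA in turn drives a constitutively active form of CREB. The tissue is bulk cortex, so fewer cells of a type and less RNA per cell cannot be told apart. RNA of the 22 mice was hybridised on 11 dual-colour arrays, 1 mouse in each dye. Arrays A to F lay on slide 1 and arrays I to M on slide 2, and all WT mice were on slide 1, so the calls that a slide term changes are given as well.

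Levels below are normalized log2 channel intensities. Differences are log2 ratios with their standard errors (SE), and adjusted p-values are Benjamini-Hochberg values over all features tested. The planned test was limma on the within-array ratios (the ratio fit, 7 residual degrees of freedom, 26082 features). A separate-channel fit in limma, which also uses differences between arrays (17 residual degrees of freedom, 25965 features, 37 of the genes), is given beside it throughout, because the count of calls differed greatly between them. A gene is called where its adjusted p is under 0.05, and "rose" and "fell" refer to calls of the separate-channel fit. Lists are described by counts and medians, with no test over a list.

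Groups were taken from the titles, which the channel 2 labels contradict for arrays I, J and K. The mouse of array I titled TC is labelled T in that channel, the mouse of array J titled T is labelled TC, and the mouse of array K titled TC is labelled T. The TC mouse of array I stood apart from the other lesioned mice. At 11.62 its microglia marker level lay in the T range (11.39 to 11.83), below the remaining TC mice (12.29 to 13.17). At 12.73 its red cell marker level also lay in the T range (12.23 to 13.15), above the remaining TC mice (11.16 to 12.04). Its astrocyte marker level, 13.22, lay within the TC range of 13.06 to 13.56 and above the T range of 12.62 to 12.84. The T mouse of array J had a microglia marker level of 11.76 and an astrocyte level of 12.70, both in the range of the other T mice, and a red cell level of 12.23, between the remaining T mice (12.70 to 13.15) and the TC mice other than that of array I. The TC mouse of array K had levels of 13.02, 13.06 and 11.16 for these lists, each on the lesioned side of every T mouse. Counts and the calls that change are given with and without array I, and the counts under the channel 2 labels are given too. Between 56.63% and 65.34% of spots were well above background in a channel, and no spot carried a saturation flag.

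Promoters of 5 of the genes are shown because they hold the recognition sequence of a regulator on the list or of the transgene product. TFEB, a master regulator of lysosomal genes, binds an E-box with the core CACGTG. CREB, the factor activated in the transgenic astrocytes, binds the cAMP response element TGACGTCA. The windows are RefSeq sequences on GRCm38.p6, 250 bases before to 50 after a gene's start, 5′ to 3′ on the gene's strand, with the motif in capitals. Ctsd (chr7:142387778-142388077, minus strand), the second annotated start of Lgmn (chr12:102439043-102439342, minus strand) and Lamp1 (chr8:13158911-13159210, plus strand) hold E-boxes. Ctsf (chr19:4854915-4855214, plus strand) holds an E-box and was the one listed gene that fell in WTC against WT cortex. It was not called in TC against T cortex. Gusb (chr5:130003000-130003299, minus strand) was the one listed gene with the full cAMP response element.
Ctsd: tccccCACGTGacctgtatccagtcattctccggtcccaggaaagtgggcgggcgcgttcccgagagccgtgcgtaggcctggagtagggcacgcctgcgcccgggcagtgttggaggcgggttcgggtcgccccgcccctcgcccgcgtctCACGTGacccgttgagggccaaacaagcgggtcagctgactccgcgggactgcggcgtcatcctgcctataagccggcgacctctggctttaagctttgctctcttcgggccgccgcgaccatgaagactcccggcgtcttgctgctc
Lgmn: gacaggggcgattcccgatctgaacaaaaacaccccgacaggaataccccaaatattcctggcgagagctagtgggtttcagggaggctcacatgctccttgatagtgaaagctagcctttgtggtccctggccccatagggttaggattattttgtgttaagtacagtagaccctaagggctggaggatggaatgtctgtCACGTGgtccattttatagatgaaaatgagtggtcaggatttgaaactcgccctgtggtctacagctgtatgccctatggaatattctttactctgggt
Lamp1: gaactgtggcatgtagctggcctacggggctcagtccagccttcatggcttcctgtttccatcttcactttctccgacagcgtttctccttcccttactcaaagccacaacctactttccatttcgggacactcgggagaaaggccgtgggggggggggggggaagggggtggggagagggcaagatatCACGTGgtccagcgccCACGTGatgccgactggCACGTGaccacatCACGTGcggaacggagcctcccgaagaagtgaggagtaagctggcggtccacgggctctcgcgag
Ctsf: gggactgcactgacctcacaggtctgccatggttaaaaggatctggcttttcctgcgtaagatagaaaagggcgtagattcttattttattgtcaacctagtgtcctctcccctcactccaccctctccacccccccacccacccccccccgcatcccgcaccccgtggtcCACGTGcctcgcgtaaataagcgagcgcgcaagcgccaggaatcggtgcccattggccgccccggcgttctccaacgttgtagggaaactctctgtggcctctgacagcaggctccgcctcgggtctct
Gusb: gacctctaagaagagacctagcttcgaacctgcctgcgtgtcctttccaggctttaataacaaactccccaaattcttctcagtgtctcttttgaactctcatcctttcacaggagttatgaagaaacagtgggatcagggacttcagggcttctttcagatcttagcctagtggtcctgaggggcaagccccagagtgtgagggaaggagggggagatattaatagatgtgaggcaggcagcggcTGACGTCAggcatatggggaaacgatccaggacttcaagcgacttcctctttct

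In these windows the E-boxes began 245 and 98 bases before the start of Ctsd, 49 before that of Lgmn, 61, 45, 28 and 15 before that of Lamp1, and 79 before that of Ctsf. The cAMP response element of Gusb began 4 bases before its start. A window was available for 36 of the 40 genes. Searched on both strands, CACGTG was in 11 of the 36 (30.6%), against 8.09% of 27025 genes with a window. The longer forms TCACGTGA and GTCACGTG, which contain CACGTG, were in 11.1% and 22.2% of the 36, against 1.12% and 2.55% of all genes. TGACGTCA was in 1 of 36 (2.78%), against 2.03% of all genes. Of the 10 genes with CACGTG tested in the separate-channel fit, 5 rose in WTC against WT cortex. Of the 24 tested genes without it, 13 did. A match describes the letters of the window and not an occupied site.

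Lesioned cortex of both genotypes had higher levels of many of these genes, cathepsins, other peptidases and membrane proteins among them. In WTC against WT cortex, 20 of 37 genes rose and 1 (Ctsf) fell in the separate-channel fit, against 14.2% of all features higher and 12.2% lower. In TC against T cortex, 17 rose and 0 fell, against 4.71% of all features higher and 2.7% lower. All 17 were among the 20. The other 3 were Ctsb, Hexa and Tfeb, with adjusted p-values of 0.079, 0.11 and 0.073 in TC against T cortex. Without array I, Ctsb (0.79, adjusted p = 0.034), Hexa (0.80, adjusted p = 0.016) and Tpp1 (0.43, adjusted p = 0.027) were called in TC against T cortex as well. The median log2 ratio over the genes was 0.52 for TC minus T and 0.59 for WTC minus WT, while the median over all features was within 0.03 of 0 in each.

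The ratio fit gave medians close to those, 0.46 for TC minus T and 0.53 for WTC minus WT over 38 genes, but called none of them. Its ratio was positive for 30 genes in TC minus T and for 33 in WTC minus WT. At an unadjusted p under 0.05 there were 17 genes in TC minus T and 19 in WTC minus WT. Shares of all features are given for calls only, not for unadjusted p-values, here and below. Counts at an unadjusted p were thus not set against a background share. Over all features, at an adjusted p under 0.05, the ratio fit in limma called 0% in TC minus T and 0.023% (6 features) in WTC minus WT. Single arrays decided its WTC minus WT count. It called 16 of the genes without array I (5.51% of all features), 13 without array K (6.07%), and 0 without any other single array. Without arrays I, J and K 18 rose (6.76% of features), and on slide 1 alone 17 rose and 1 fell (8.28%).

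The separate-channel count of WTC minus WT was between 17 (without array B) and 24 genes as each array was left out in turn. The 24, without array K, were 22 higher and 2 lower of 38. Features called then ranged between 3187 of 25972 (without array B) and 7918 of 25979 (without array A). The count of genes was 19 with a slide term (13.3% of features), 21 without array I (30.5%) and 18 under the channel 2 labels (16%). The TC minus T count depended far more on single arrays. It was 20 without array I (10.5% of features), 12 with a slide term (3.48%), 8 without array D (2.24%), 5 without array E (1.61%) and 1 without array J (0.704%). It was 0 under the channel 2 labels (0% of features). With the slide term 6 of the 17 genes were no longer called in TC minus T, with adjusted p-values of 0.055 for Ctss, 0.059 for Ctsz, 0.11 for Ctsa, 0.068 for Man2b1, 0.072 for Lipa and 0.062 for Laptm5. Gm2a was called with it, at 0.40 (adjusted p = 0.044). Lamp2, with a log2 ratio of 0.83 ± 0.18 (SE; adjusted p = 0.044), was the gene still called without array J. Lamp2, Ctsd, Lgmn, Ctsl and Cd63 were the 5 called without array E.

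**Figure D1:**
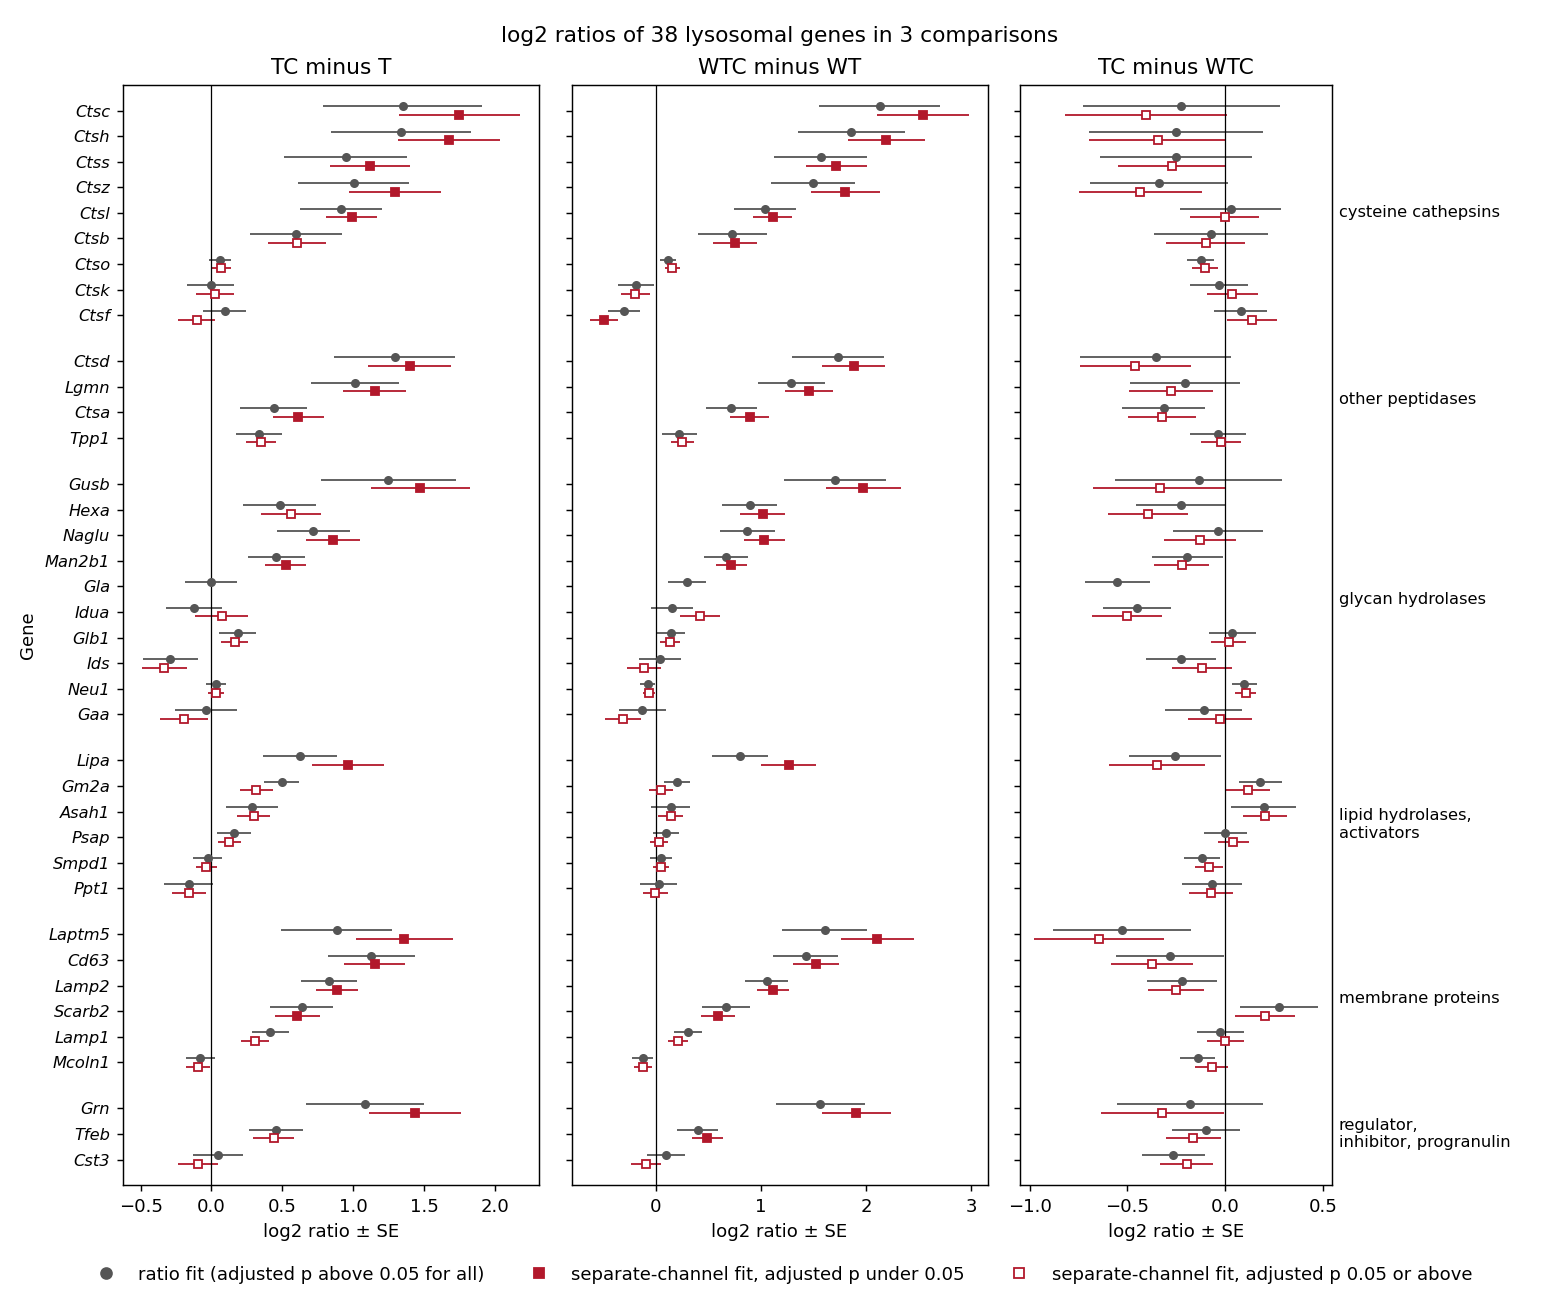
log2 ratios ± SE (x axes) of 38 lysosomal genes (rows, grouped by role and ordered by WTC minus WT) in TC minus T, WTC minus WT and TC minus WTC. Grey circles are the ratio fit, in which no gene was called, and red squares the separate-channel fit, filled where the adjusted p is under 0.05. Filled squares number 17, 21 and 0 in the 3 panels, and Gla has no separate-channel value.

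Levels separated the groups in the same way. In WTC against WT mice, 19 of 37 genes had every WTC mouse above every WT mouse (9.2% of all features did), and Ctsf had every WTC mouse below (7.4% of features). In TC against T mice, 6 of 37 genes had every TC mouse above every T mouse (2.04% of features), namely Ctsl, Ctsd, Lgmn, Tpp1, Lamp2 and Cd63, and 0 had every TC mouse below (2.88%). Without the TC mouse of array I the first of these counts was 19 of 37 (7.02% of features), an alternative chosen after seeing the data.

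Over the 20 genes that rose in WTC cortex, the mean level of a mouse was 12.79, 11.71, 12.70, 13.51, 12.56 and 13.16 in the TC mice of arrays C, I, J, K, L and M. It was 12.58, 13.12, 12.82, 13.36 and 13.45 in the WTC mice of arrays A, B, K, L and M, against 11.47 to 11.80 in T mice and 11.35 to 11.83 in WT mice. The TC mouse of array I was thus the one lesioned mouse inside the unlesioned range. It was above the highest unlesioned mouse in 4 of the 20 genes, and the other TC mice were in 18 to 20. The WTC mice took part in the choice of these genes.

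Cysteine cathepsins are papain-like proteases, and 6 of 9 rose and 1 fell in WTC against WT cortex, while 5 rose in TC against T cortex. Those rising in both were Ctsc, Ctsh, Ctsl, Ctss and Ctsz. Ctsc, cathepsin C, which activates the serine proteases of myeloid cells, had the largest ratio of all the genes. Its level in TC mice ran between 7.92 and 11.44 (median 10.23), and in WTC mice it was 10.09, 10.56, 10.22, 11.23 and 11.32. In T mice it was 8.14, 8.07, 8.50, 8.57 and 8.10, and in WT mice between 7.61 and 8.56 (median 7.87). All WTC mice and 5 of 6 TC mice were above every unlesioned mouse, and the TC mouse of array I, at 7.92, was below every T mouse.

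The Ctsc log2 ratio was 1.75 ± 0.43 (3.36-fold; adjusted p = 0.021) in TC minus T and 2.54 ± 0.43 (5.81-fold; adjusted p = 0.00067) in WTC minus WT in the separate-channel fit. The ratio fit gave 1.35 ± 0.56 (adjusted p = 0.40) and 2.13 ± 0.57 (adjusted p = 0.12). Without array I the separate-channel TC minus T ratio was 2.44 (adjusted p = 7.5e-05). Ctsh, cathepsin H, an aminopeptidase, averaged 13.22 ± 1.03 in TC mice and 13.61 ± 0.55 in WTC mice, against 11.40 ± 0.27 in T mice and 11.28 ± 0.26 in WT mice (SD, n = 6, 5, 5 and 6). Its log2 ratio was 1.68 ± 0.36 (adjusted p = 0.012) in TC minus T and 2.19 ± 0.37 (adjusted p = 0.00058) in WTC minus WT in the separate-channel fit.

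Ctsz, cathepsin Z, a carboxypeptidase, had separate-channel log2 ratios of 1.29 ± 0.32 (adjusted p = 0.023) in TC minus T and 1.80 ± 0.33 (adjusted p = 0.0010) in WTC minus WT. For Ctss, the cathepsin that trims the MHC class II invariant chain, they were 1.12 ± 0.28 (adjusted p = 0.024) and 1.72 ± 0.29 (adjusted p = 0.00058). Ctsl, which has broad endopeptidase activity, had 0.99 ± 0.18 (adjusted p = 0.0048) and 1.11 ± 0.18 (adjusted p = 0.00057). Ctsb rose in WTC minus WT by a smaller amount, 0.75 ± 0.21 (adjusted p = 0.015). Ctsk, best known as the collagenase of osteoclasts, and Ctso were called in neither comparison, with log2 ratios between -0.19 and 0.16 in the separate-channel fit.

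Ctsf, cathepsin F, went the other way. Its level was between 10.70 and 11.79 in TC mice (median 11.14) and was 11.07, 11.07, 11.002, 10.98 and 10.95 in WTC mice. It was 11.27, 11.64, 11.43, 11.35 and 11.15 in T mice and between 11.42 and 11.72 in WT mice (median 11.57). The WTC mice lay in a narrow band below every WT mouse, and the TC mice spanned the T range on both sides, with the TC mouse of array I highest. Ctsf fell by 0.49 ± 0.13 (log2; adjusted p = 0.013) in WTC minus WT in the separate-channel fit, and the ratio fit gave -0.30 ± 0.15 (adjusted p = 0.32). With a slide term the adjusted p was 0.055. The TC minus T ratio was -0.10 ± 0.13 (adjusted p = 0.64) in the separate-channel fit and 0.09 ± 0.15 in the ratio fit.

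**Figure D2:**
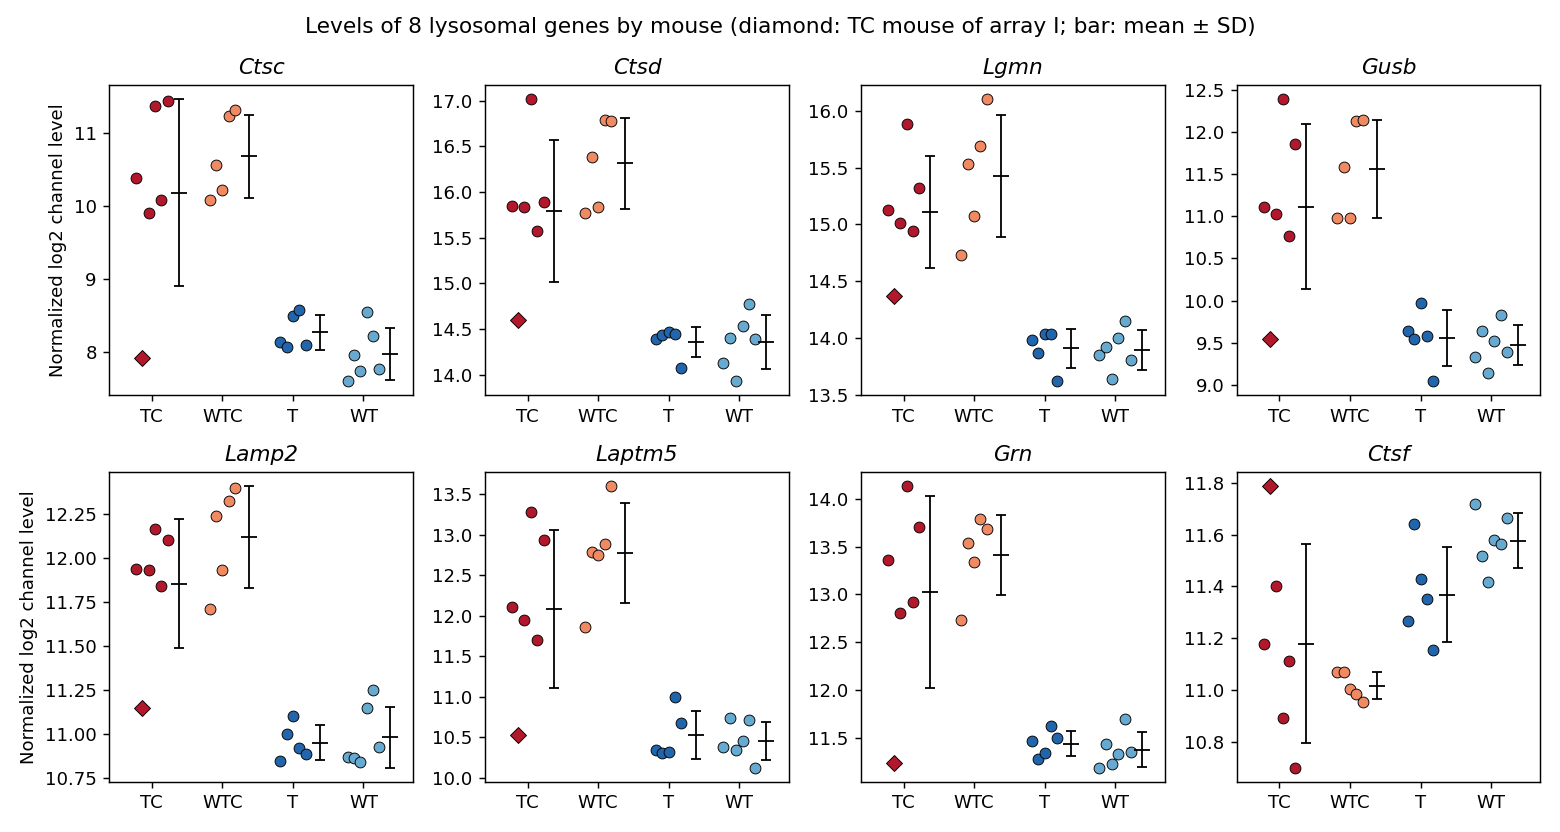
Normalized log2 channel level (y axes) of 8 lysosomal genes in each mouse, by group (x axes: TC, n = 6; WTC, n = 5; T, n = 5; WT, n = 6), with mean ± SD as a bar at the right of each group. The diamond is the TC mouse of array I, which lies at the unlesioned level for Ctsc, Gusb, Laptm5 and Grn and is the highest mouse for Ctsf.

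Of the 4 other peptidases, Ctsd, Lgmn and Ctsa rose in both comparisons. Ctsd, cathepsin D, the main lysosomal aspartic protease, had levels between 14.60 and 17.02 in TC mice (median 15.84) and of 15.77, 16.38, 15.84, 16.79 and 16.78 in WTC mice. In T mice they were 14.39, 14.43, 14.47, 14.44 and 14.07, and in WT mice between 13.93 and 14.78 (median 14.40). Every TC mouse was above every T mouse and every WTC mouse above every WT mouse, and the TC mouse of array I was the lowest of the lesioned mice. The separate-channel log2 ratio was 1.40 ± 0.29 (2.63-fold; adjusted p = 0.010) in TC minus T and 1.88 ± 0.30 (3.69-fold; adjusted p = 0.00041) in WTC minus WT, and the ratio fit gave 1.29 ± 0.43 (adjusted p = 0.33) and 1.73 ± 0.44 (adjusted p = 0.11).

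Lgmn, legumain, which cleaves after asparagine and processes several cathepsins, had levels between 14.37 and 15.88 in TC mice (median 15.07) and of 14.73, 15.53, 15.08, 15.69 and 16.10 in WTC mice. They were 13.98, 13.87, 14.04, 14.04 and 13.62 in T mice and between 13.64 and 14.15 in WT mice (median 13.88). The lesioned mice of each genotype did not overlap with the unlesioned ones. In the separate-channel fit the log2 ratio was 1.15 ± 0.22 (adjusted p = 0.0064) in TC minus T and 1.46 ± 0.23 (adjusted p = 0.00035) in WTC minus WT. Ctsa, the protective protein that stabilises β-galactosidase and neuraminidase, had ratios of 0.61 ± 0.18 (adjusted p = 0.044) and 0.89 ± 0.18 (adjusted p = 0.0023). Tpp1, the tripeptidyl peptidase affected in a childhood neuronal ceroid lipofuscinosis, had 0.35 ± 0.11 (adjusted p = 0.050) and 0.25 ± 0.11 (adjusted p = 0.087) and was not called.

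Glycan hydrolases split, with 4 of 9 called in WTC minus WT (Gusb, Hexa, Naglu and Man2b1) and 3 in TC minus T (Gusb, Naglu and Man2b1). Gusb, β-glucuronidase, had levels between 9.55 and 12.39 in TC mice (median 11.06) and of 10.98, 11.58, 10.98, 12.13 and 12.15 in WTC mice. In T mice they were 9.64, 9.55, 9.98, 9.58 and 9.05, and in WT mice between 9.14 and 9.83 (median 9.46). Apart from the TC mouse of array I, which was at the T level, the lesioned mice were above all unlesioned mice. For Gusb the separate-channel log2 ratio was 1.47 ± 0.35 (2.78-fold; adjusted p = 0.018) in TC minus T and 1.97 ± 0.36 (3.92-fold; adjusted p = 0.00096) in WTC minus WT.

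Naglu, which acts on heparan sulfate, rose by 0.86 ± 0.19 (adjusted p = 0.014) in TC minus T and by 1.03 ± 0.19 (adjusted p = 0.0013) in WTC minus WT. Man2b1, the lysosomal α-mannosidase, rose by 0.52 ± 0.15 (adjusted p = 0.035) and 0.72 ± 0.15 (adjusted p = 0.0024). Hexa, which takes part in the breakdown of GM2 ganglioside, had 0.56 ± 0.21 (adjusted p = 0.11) in TC minus T and rose by 1.01 ± 0.22 (adjusted p = 0.0029) in WTC minus WT.

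The other glycan hydrolases were not called in either lesion comparison. Ids, which removes sulfate from heparan and dermatan sulfate, had the lowest ratio in TC minus T, -0.33 ± 0.16 (adjusted p = 0.21), and -0.11 ± 0.16 in WTC minus WT. Gaa, acid α-glucosidase, had -0.19 ± 0.17 and -0.31 ± 0.17, and Idua, α-iduronidase, 0.07 ± 0.19 and 0.42 ± 0.19. Glb1, β-galactosidase, and Neu1, neuraminidase, were between -0.06 and 0.16. Gla, α-galactosidase A, had no value on array K and so no separate-channel fit, and the ratio fit gave -0.00 ± 0.18 in TC minus T and 0.30 ± 0.18 in WTC minus WT.

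Among 6 lipid hydrolases and activators, Lipa alone was called without the slide term, and its TC minus T call was lost with that term. Lipa, acid lipase, which frees cholesterol from its esters, had levels between 9.39 and 11.17 in TC mice (median 9.90) and of 9.85, 10.11, 10.53, 10.51 and 11.24 in WTC mice. In T mice they were 8.83, 8.62, 9.01, 9.50 and 8.87, and in WT mice between 8.61 and 9.15 (median 8.99). Every WTC mouse was above every WT mouse, while 2 TC mice were below the highest T mouse. Lipa rose by 0.96 ± 0.26 (log2; adjusted p = 0.029) in TC minus T and by 1.26 ± 0.26 (adjusted p = 0.0024) in WTC minus WT.

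Gm2a, the activator protein for the breakdown of GM2 ganglioside, had a ratio of 0.49 ± 0.12 in TC minus T in the ratio fit (adjusted p = 0.27) and 0.32 ± 0.12 in the separate-channel fit (adjusted p = 0.096), or 0.40 with the slide term (adjusted p = 0.044). In WTC minus WT its 2 probes differed in sign, 0.20 for the brighter and -0.26 for the other. Psap, the precursor of the saposins, had 0.13 ± 0.08 in TC minus T and 0.03 ± 0.08 in WTC minus WT, with adjusted p-values of 0.35 and 0.81. Asah1 (acid ceramidase), Smpd1 (acid sphingomyelinase) and Ppt1 (palmitoyl-protein thioesterase) were between -0.16 and 0.30 in the separate-channel fit and not called.

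Of the 6 membrane proteins measured, Lamp2, Cd63, Laptm5 and Scarb2 rose in both comparisons. Lamp2, a heavily glycosylated protein of the lysosomal membrane that also serves chaperone-mediated autophagy, had levels between 11.15 and 12.16 in TC mice (median 11.94) and of 11.71, 12.24, 11.94, 12.32 and 12.40 in WTC mice. They were 10.85, 10.998, 11.10, 10.92 and 10.89 in T mice and between 10.84 and 11.25 in WT mice (median 10.90). Groups did not overlap in either genotype, although the TC mouse of array I exceeded the highest T mouse by a small margin. The separate-channel log2 ratio was 0.88 ± 0.15 (1.85-fold; adjusted p = 0.0021) in TC minus T and 1.11 ± 0.15 (2.17-fold; adjusted p = 0.00014) in WTC minus WT. In the ratio fit Lamp2 had the smallest p of the genes in both, with 0.83 ± 0.20 (adjusted p = 0.27) and 1.05 ± 0.20 (adjusted p = 0.095).

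Laptm5, a lysosomal membrane protein of haematopoietic cells, had levels between 10.53 and 13.28 in TC mice (median 12.03) and of 11.86, 12.78, 12.75, 12.88 and 13.60 in WTC mice. They were 10.35, 10.31, 10.31, 10.99 and 10.68 in T mice and between 10.13 and 10.73 in WT mice (median 10.41). The TC mouse of array I was below 2 T mice, and the other lesioned mice were above all unlesioned mice. Its log2 ratio in the separate-channel fit was 1.36 ± 0.34 (2.57-fold; adjusted p = 0.023) in TC minus T and 2.11 ± 0.35 (4.31-fold; adjusted p = 0.00054) in WTC minus WT.

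Cd63, a tetraspanin of late endosomes and exosomes, rose by 1.15 ± 0.21 (adjusted p = 0.0052) in TC minus T and by 1.53 ± 0.22 (adjusted p = 0.00022) in WTC minus WT. Scarb2, the receptor that carries β-glucocerebrosidase to lysosomes, rose by 0.61 ± 0.16 (adjusted p = 0.027) and 0.59 ± 0.16 (adjusted p = 0.013). Lamp1, the companion of LAMP2 and the gene with 4 E-boxes, had 0.31 ± 0.10 (adjusted p = 0.061) and 0.21 ± 0.10 (adjusted p = 0.12). Its mean level was 15.62 ± 0.15 in TC mice and 15.61 ± 0.23 in WTC mice, against 15.36 ± 0.14 in T mice and 15.43 ± 0.11 in WT mice (SD, n = 6, 5, 5 and 6). Mcoln1, the calcium channel TRPML1, had -0.10 ± 0.09 and -0.12 ± 0.09 and was not called.

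Grn, progranulin, a secreted and lysosomal glycoprotein that supports cathepsin D and whose loss causes lysosomal storage, rose in both comparisons. Its level was between 11.24 and 14.14 in TC mice (median 13.14) and was 12.73, 13.54, 13.34, 13.79 and 13.68 in WTC mice. In T mice it was 11.46, 11.28, 11.34, 11.62 and 11.50, and in WT mice between 11.19 and 11.70 (median 11.34). The TC mouse of array I was below every T mouse, and all other lesioned mice were above every unlesioned mouse. The separate-channel log2 ratio was 1.44 ± 0.32 (2.71-fold; adjusted p = 0.015) in TC minus T and 1.91 ± 0.33 (3.75-fold; adjusted p = 0.00074) in WTC minus WT.

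Tfeb had levels between 7.68 and 8.75 in TC mice (median 8.45) and of 8.42, 8.52, 8.60, 8.42 and 8.78 in WTC mice. In T mice they were 7.90, 8.19, 7.93, 7.996 and 7.63, and in WT mice between 7.66 and 8.26 (median 7.99). Every WTC mouse was above every WT mouse, and the TC mice overlapped with the T mice. Tfeb rose by 0.49 ± 0.15 (adjusted p = 0.023) in WTC minus WT in the separate-channel fit and had 0.44 ± 0.15 (adjusted p = 0.073) in TC minus T. With a slide term the WTC minus WT adjusted p was 0.092. Cst3, cystatin C, the secreted inhibitor of cysteine cathepsins, was the brightest gene in the group means of T and WT mice, 16.52 ± 0.10 and 16.71 ± 0.21, and averaged 16.37 ± 0.23 in TC mice and 16.53 ± 0.36 in WTC mice. Brightness depends on the probe and ranks no transcript. Its ratio was -0.09 ± 0.14 in both lesion comparisons of the separate-channel fit.

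The authors' deposited table, which lists a log2 ratio and an adjusted p per spot, was read for the same 38 probes. The authors' deposited table listed 13 genes as higher at an adjusted p under 0.05 in TC against T cortex (1.62% of all spots) and 0 were lower (0.351%). In WTC against WT cortex the authors' deposited table had 10 higher (9.41% of readable spots) and 2 lower (15.4%). The lower pair in the authors' deposited table was Ctsf at -0.58 and Gaa at -0.46. The p cells of another 10 genes held values above 1 in the authors' deposited table for that comparison and could not be read. Ratios of these 10 ran between 1.11 (Naglu) and 2.43 (Laptm5) in the authors' deposited table.

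Between lesioned cortices of the genotypes, ratios of the genes leaned lower in TC mice and none was called in either fit. The median log2 ratio of TC minus WTC was -0.14 over 38 genes in the ratio fit, and 30 of 38 were negative, against a median of -0.02 over all features. Under median centring in place of loess, the median over the genes was 0.05, below the 0.08 over all features. The sign of the median thus depends on the scaling, while its place below all features did not change. In the ratio fit the median also turned positive without array L (0.03, 22 of 38 positive), above the -0.02 over all features. On slide 1 alone it was 0.12 (28 positive), against 0.005 over all features. The ratio fit in limma called 0 of 38 (0% of all features), with 2 at an unadjusted p under 0.05. The separate-channel fit called 0 of 37 (0.139% of features), with 1 at an unadjusted p under 0.05. No gene had all TC mice on one side of all WTC mice (0.443% of features did).

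The genes with the smallest p in the ratio fit were Gla, -0.55 ± 0.16 (adjusted p = 0.22), Idua, -0.45 ± 0.18 (adjusted p = 0.30), and Ctso, -0.13 ± 0.07 (adjusted p = 0.43). Scarb2 had the highest ratio, 0.28 ± 0.20. On the arrays that carried a TC and a WTC mouse together, the Gla ratio was -0.24 on array L and -1.38 on array M, and array K gave no value. The Idua ratio was -0.07 on array K, -0.10 on array L and -1.38 on array M. Most of the direct difference of both genes thus came from array M.

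For the genes that rose with the lesion, arrays K, L and M pulled in opposite directions. The TC over WTC ratio of Ctsd was 1.69 on array K, -1.73 on array L and -0.38 on array M, and that of Ctsc was 1.58, -1.57 and 0.54. For Laptm5 it was 0.61, -1.26 and -0.59. The TC mouse of array K had the highest mean level of the 20 called genes among all lesioned mice. Without array K the separate-channel fit called 2 genes (3.61% of all features), Ctsd at -0.91 ± 0.22 (adjusted p = 0.041) and Idua at -0.67 ± 0.16 (adjusted p = 0.035), both lower in TC mice. A second Ctsd probe had a TC minus WTC ratio of 0.11 in the ratio fit, against -0.36 for the brighter probe. A second Idua probe had -0.07, against -0.45 for the brighter one.

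In TC minus WTC the authors' deposited table had 8 genes lower at an adjusted p under 0.05 (3.94% of all spots) and 0 higher (7.22%). In the authors' deposited table these were Laptm5 at -1.11, Ctsd at -0.90, Ctsz at -0.90, Lipa at -0.82, Cd63 at -0.71, Hexa at -0.70, Lgmn at -0.59 and Ctsa at -0.51, with adjusted p-values between 0.022 and 0.047. The separate-channel fit gave the same 8 genes ratios between -0.64 ± 0.33 (Laptm5; adjusted p = 0.32) and -0.28 ± 0.21 (Lgmn; adjusted p = 0.50). Direction was the same in both for these 8, and the call was not. Without array I, whose TC mouse was near the unlesioned level, the separate-channel ratio was -0.39 for Laptm5 (adjusted p = 0.50) and -0.26 for Ctsd (adjusted p = 0.65).

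Whether the lesion effect differed between genotypes was tested as TC minus T less WTC minus WT. These comparisons share no mice, but they were estimated jointly through arrays that link the groups, so they are not independent. The median of this difference was -0.16 over 38 genes in the ratio fit, with 26 of 38 negative, against -0.02 over all features. Under median centring it was 0.02, against 0.08 over all features. The ratio fit in limma called 0 genes (0% of features), with 1 at an unadjusted p under 0.05, and the separate-channel fit called 0 (0% of features), also with 1. Ctsc had the most negative difference, -0.78 ± 0.65 (adjusted p = 0.81), and Ctsf the most positive, 0.40 ± 0.18 (adjusted p = 0.81). Gm2a had 0.29 ± 0.14 and Laptm5 -0.72 ± 0.46, each with an adjusted p of 0.81. Without array I the median in the separate-channel fit was -0.04 and the differences of Ctsc and Laptm5 were -0.28 and -0.36.

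In unlesioned cortex the transgenic and wild-type mice had close levels. The median of T minus WT was 0.01 over 38 genes in the ratio fit, with 20 of 38 positive. The ratio fit in limma called 0 genes (0% of features), with 1 at an unadjusted p under 0.05, and the separate-channel fit called 0 (0%) with 0. No gene had all T mice on one side of all WT mice (0.511% of features did). Ctsf had the lowest ratio, -0.32 ± 0.14 in the ratio fit and -0.25 ± 0.13 in the separate-channel fit, and Ctsc the highest, 0.55 ± 0.51 and 0.38 ± 0.42. Mcoln1 had -0.19 ± 0.09 and Scarb2 0.30 ± 0.20 in the ratio fit, both with an adjusted p of 0.98.

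Markers of several cell types moved with the lesion in the same mice. Over all features the separate-channel fit called 4.71% higher and 2.7% lower in TC minus T, and 14.2% and 12.2% in WTC minus WT. In the separate-channel fit, 6 of 11 microglia markers rose in TC minus T and 9 in WTC minus WT. Of 10 monocyte and macrophage markers 3 rose in TC minus T and 10 in WTC minus WT, and of 10 astrocyte markers 4 and 7 rose. The mean microglia marker level was 11.62 to 13.17 in TC mice and 12.45 to 13.26 in WTC mice, against 11.39 to 11.83 in T mice and 11.38 to 11.94 in WT mice. The monocyte and macrophage level was 8.04 to 10.87 in TC mice and 9.34 to 11.01 in WTC mice, against 7.69 to 8.45 in T mice and 7.62 to 8.13 in WT mice. The TC minus T counts include the TC mouse of array I, which had the lowest TC level of both lists, 11.62 and 8.04, inside the T ranges. The part of these cells in the lysosomal ratios was not tested.

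Red cell markers were lower in lesioned cortex. Of 5 red cell markers 4 fell in TC minus T and 5 in WTC minus WT, and their mean level was 11.16 to 12.73 in TC mice and 11.21 to 12.31 in WTC mice, against 12.23 to 13.15 in T mice and 12.45 to 13.17 in WT mice. Of 8 neuron markers tested 0 were called in TC minus T and 1 fell in WTC minus WT. The mean level over 10 neuron markers was 13.50 to 14.035 in TC mice and 13.69 to 14.13 in WTC mice. It was 13.98 to 14.275 in T mice and 14.17 to 14.35 in WT mice. Every WTC mouse was thus below every WT mouse for this list, and TC and T mice overlapped. Of 5 neutrophil markers 0 were called in TC minus T and 2 rose in WTC minus WT, and their mean level was 7.42 to 9.02 in TC mice and 8.30 to 8.86 in WTC mice, against 7.48 to 8.66 in T mice and 7.26 to 7.53 in WT mice. Of 5 oligodendrocyte precursor markers 0 were called in TC minus T and 1 rose in WTC minus WT, with mean levels of 10.16 to 10.88 in TC mice and 10.87 to 11.13 in WTC mice, against 10.11 to 10.52 in T mice and 10.29 to 10.61 in WT mice. Neither the neutrophil nor the precursor list overlapped between WTC and WT mice, and both overlapped between TC and T mice. In TC minus T 0 oligodendrocyte and 0 endothelial or mural markers were called, and in WTC minus WT 1 of 8 oligodendrocyte markers rose and 1 of 10 endothelial or mural markers rose and 1 fell. A single call in a list of 8 or 10 lies near the share over all features in WTC minus WT (14.2% higher, 12.2% lower). For 5 T, B and NK cell markers the separate-channel fit called 0 in both, with 0 at an unadjusted p under 0.05 in TC minus T and 1 in WTC minus WT. Mean choroid plexus marker levels ran between 8.48 and 13.33 in TC mice, 9.59 and 13.53 in WTC mice, 9.01 and 10.63 in T mice and 8.75 and 13.51 in WT mice. Striatum marker levels varied between 9.22 and 11.86 in TC mice, 8.84 and 12.56 in WTC mice, 9.29 and 12.24 in T mice and 9.61 and 13.12 in WT mice. The part of these cells and tissues in the lysosomal ratios was not tested.

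**Figure D3:**
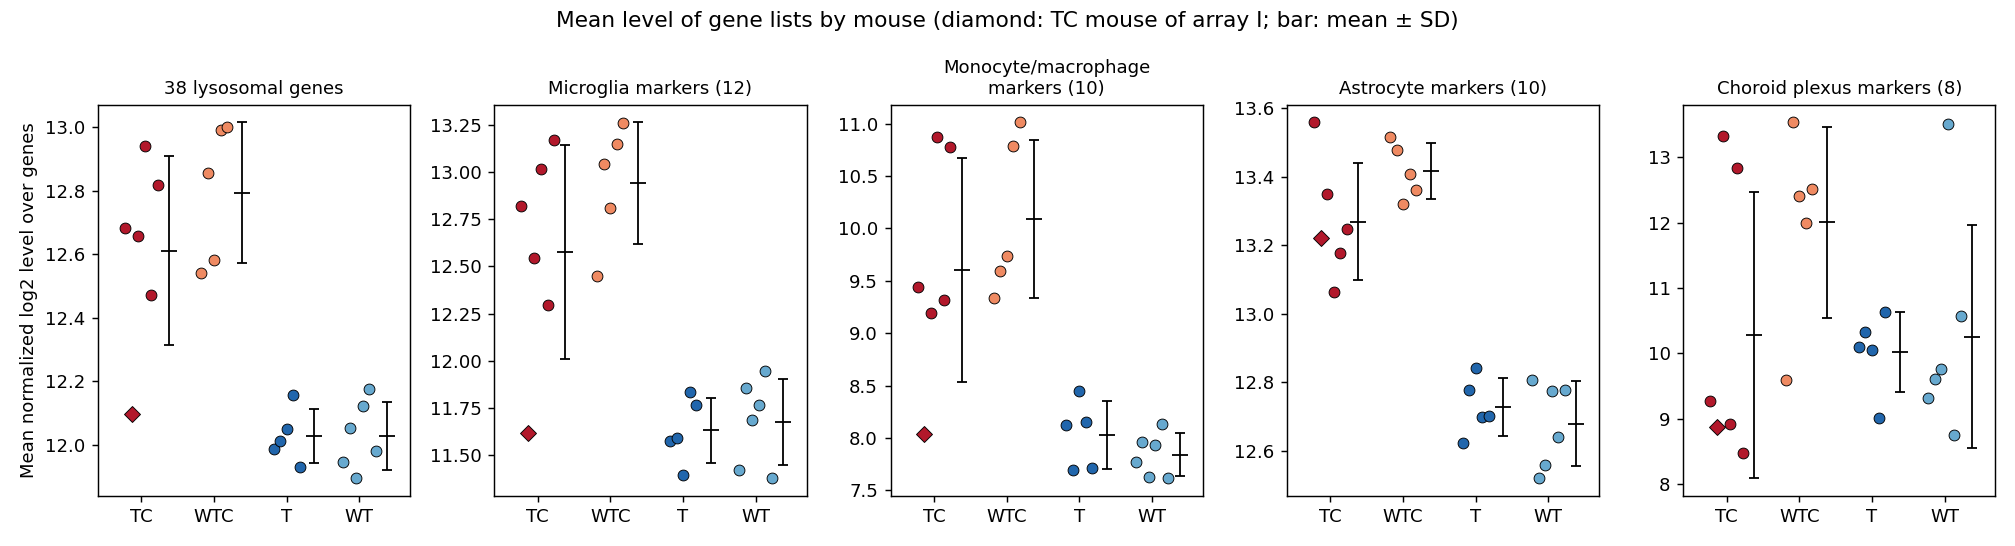
Mean normalized log2 level per mouse (y axes) of the 38 lysosomal genes and of 4 marker lists, by group (x axes: TC, n = 6; WTC, n = 5; T, n = 5; WT, n = 6), with mean ± SD at the right of each group. Lysosomal genes run between 12.10 and 12.94 in TC mice and 12.54 and 13.001 in WTC mice, against 11.93 to 12.16 in T mice and 11.90 to 12.18 in WT mice, and the diamond (TC mouse of array I) is low for lysosomal, microglia and monocyte genes but not for astrocyte markers.

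The wider lysosomal machinery did not move as one. Over all features the separate-channel fit called 4.71% higher and 2.7% lower in TC minus T, and 14.2% and 12.2% in WTC minus WT. Some counts of the lists below lie near these shares. All were made with every array, with groups from the titles and without a slide term. Among 28 other lysosomal hydrolases, 6 rose in TC minus T and 10 rose in WTC minus WT in the separate-channel fit, with 0 falling in either. Fuca1, α-fucosidase, rose by 0.54 ± 0.11 (adjusted p = 0.011) in TC minus T and 0.44 ± 0.12 (adjusted p = 0.011) in WTC minus WT. Naaa, an acid amidase of acylethanolamides, rose by 0.61 ± 0.14 (adjusted p = 0.0040) in WTC minus WT and had -0.00 ± 0.14 in TC minus T.

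Of 23 other membrane and transport proteins, 3 rose and 1 fell in TC minus T, and 7 rose and 4 fell in WTC minus WT. Cd9, a tetraspanin, rose by 1.45 ± 0.25 (adjusted p = 0.0029) in TC minus T and 1.88 ± 0.25 (adjusted p = 0.00015) in WTC minus WT. Slc11a1, the metal transporter NRAMP1 of phagosomes, rose by 1.27 ± 0.36 (adjusted p = 0.036) and 1.92 ± 0.36 (adjusted p = 0.0013). Tpcn1, an endolysosomal cation channel, rose by 0.26 ± 0.09 (adjusted p = 0.036) in WTC minus WT.

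Subunits of the V-ATPase, the pump that acidifies lysosomes and synaptic vesicles, leaned the other way. Of 19 subunits, 2 rose and 1 fell in TC minus T, and 3 rose and 11 fell in WTC minus WT, with median log2 ratios of -0.28 and -0.37. Their mean level was 13.33 and 13.19 in the WTC mice of slide 1 (arrays A and B). In the WTC mice of slide 2 (arrays K, L and M) it was 13.005, 13.21 and 12.67. WT mice, all on slide 1, were at 13.26 to 13.37, so lesion and slide are partly confounded in the WTC minus WT count. Atp6v1e1 and Atp6v1c1 fell by 0.58 ± 0.13 (adjusted p = 0.0032) and 0.61 ± 0.15 (adjusted p = 0.0087) in WTC minus WT. Atp6v0e, of the membrane sector, rose by 0.73 ± 0.14 (adjusted p = 0.0048) in TC minus T and 0.81 ± 0.14 (adjusted p = 0.00065) in WTC minus WT. Neuron markers had median ratios of -0.32 and -0.24 in the same comparisons, and their part in the V-ATPase ratios was not tested.

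Of 19 genes for sorting enzymes to lysosomes, 0 rose and 1 fell in TC minus T and 3 rose and 6 fell in WTC minus WT. Vps33a, of the tethering complexes HOPS and CORVET, and Gga3, an adaptor for mannose 6-phosphate receptors, fell by 0.53 ± 0.10 (adjusted p = 0.0012) and 0.48 ± 0.11 (adjusted p = 0.0047) in WTC minus WT. M6pr, one of those receptors, rose by 0.22 ± 0.06 (adjusted p = 0.015). Of 23 autophagy genes, 2 rose and 1 fell in TC minus T and 2 rose and 9 fell in WTC minus WT. Wipi1, a phosphoinositide-binding protein of early autophagosomes, rose by 0.32 ± 0.08 (adjusted p = 0.025) and 0.48 ± 0.08 (adjusted p = 0.00085). Map1lc3a, an LC3 protein of autophagosome membranes, and Pik3c3, the lipid kinase VPS34, fell by 0.55 ± 0.10 (adjusted p = 0.00091) and 0.71 ± 0.19 (adjusted p = 0.013) in WTC minus WT. The mean level of the autophagy genes was 11.39 and 11.25 in the WTC mice of slide 1 (arrays A and B). It was 11.03, 11.26 and 10.86 in those of slide 2 (arrays K, L and M), against 11.43 to 11.51 in WT mice, all on slide 1.

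Of 17 other regulators of lysosomal genes, 1 rose in TC minus T, and 1 rose and 3 fell in WTC minus WT. Mitf, a relative of TFEB, rose by 0.45 ± 0.13 (adjusted p = 0.036) in TC minus T and had 0.32 ± 0.13 (adjusted p = 0.073) in WTC minus WT. Rragc and Lamtor3, which hold mTORC1 at the lysosome, fell by 0.35 ± 0.11 (adjusted p = 0.024) and 0.30 ± 0.10 (adjusted p = 0.032) in WTC minus WT. Of 7 cathepsin inhibitors, 2 rose in TC minus T and 4 in WTC minus WT. Cst7, cystatin F, which acts inside lysosomes of immune cells, rose by 1.96 ± 0.40 (adjusted p = 0.0085) and 2.66 ± 0.40 (adjusted p = 0.00031). Ctla2a and Ctla2b, homologous to cathepsin propeptides, rose by 1.96 ± 0.48 (adjusted p = 0.0069) and 1.90 ± 0.43 (adjusted p = 0.0044) in WTC minus WT. The ratio fit in limma called 0 genes of these 7 lists in either comparison, with 1 to 12 per list at an unadjusted p under 0.05 in TC minus T and 3 to 10 in WTC minus WT.

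**Figure D4:**
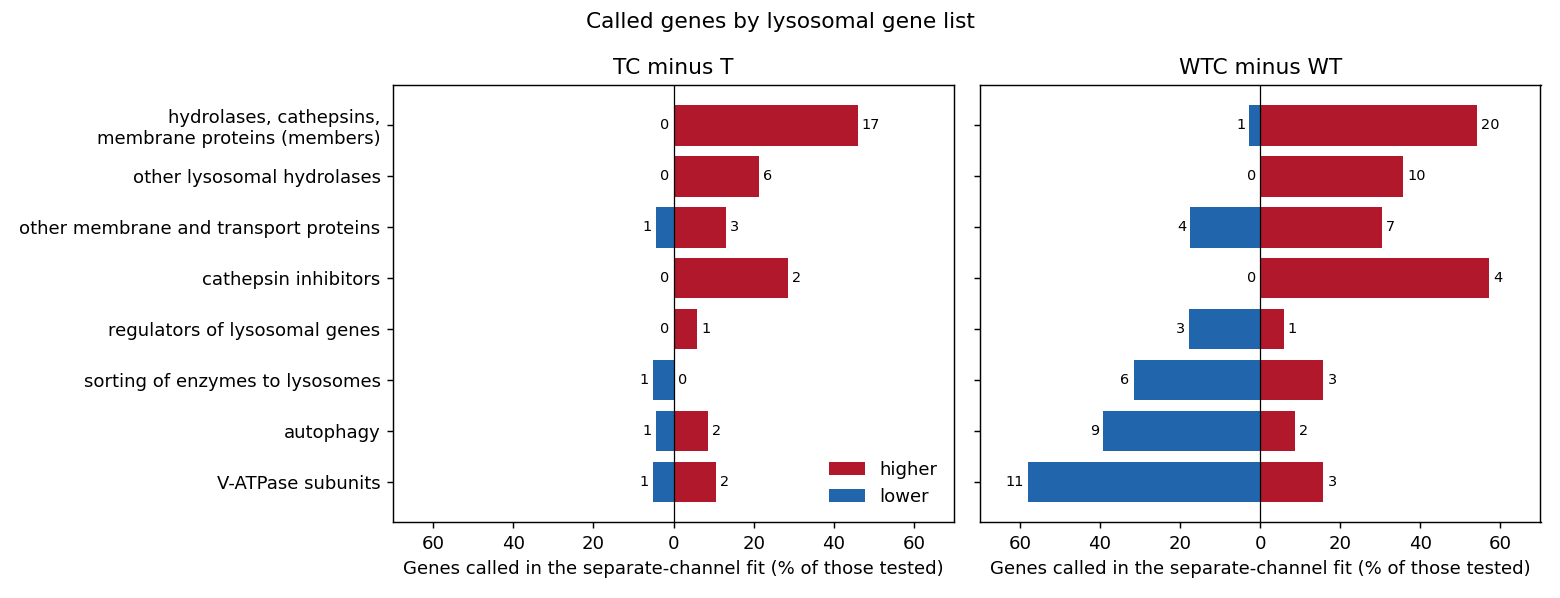
Share of the genes of each lysosomal list (rows) called higher or lower (x axes, percent of genes measured) in the separate-channel fit, for TC minus T (left) and WTC minus WT (right). The number beside a bar counts the genes, with every array and without a slide term. Over all features 4.71% were higher and 2.7% lower in TC minus T, and 14.2% and 12.2% in WTC minus WT. The top row holds the genes described above (17 and 20 higher), and in WTC minus WT lower calls outnumber higher ones for V-ATPase subunits (11 against 3) and autophagy genes (9 against 2).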

How the data were processed

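RNA of 22 mice was hybridised on 11 arrays, 1 mouse per dye. Spots were read by the authors with Agilent's Feature Extraction software, version 10.7.3.1 in the file headers. The deposited files hold the median intensity of each spot and of its local background and Agilent's log10 ratio, and a further table holds the authors' log2 ratios and p-values. The submitters' processing notes name limma without further detail. Here, with limma 3.58.1 in R 4.3.3, the deposited intensity values were corrected by normexp (offset 50), loess-normalized within arrays and fitted as log2 ratios with a dye term. A probe was kept if 5 or more of the 22 channels were well above background. A separate-channel fit (loess and Aquantile), in which the intraspot correlation was 0.322, was the alternative given beside it. The number of arrays limits the precision. Genes were named through RefSeq by accession, with 26762 of 55681 probes (48.06%) matching 1 symbol, and the brightest probe stood for a gene. Named genes were the 3 smallest p-values of each role in WTC minus WT and of each other comparison, the highest and lowest ratio of each comparison, and Ctsd, Lamp1, Laptm5, Cd68, Atp6v0d2, Cst3, Grn and Tfeb, and the remaining members are given more briefly. Fits were tested on simulated data. Members and lists were chosen with earlier results of these data known. In the authors' deposited table, 766 p-value cells of WTC against WT exceeded 1 and were not used. One gene that the rule names among the other lysosomal hydrolases is not reported here.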

Additional observations from a re-analysis of the deposited data

Results flagged for a closer look

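In 4 of 156 combinations of a group with a gene, or with the mean of the genes, 1 mouse lay far from the others of its group. Chance flags about 1 in 20. The Lamp2 level of the TC mouse of array I was 11.15, while the other TC mice were at 11.84 or above. The Idua level of the TC mouse of array K was 16.12, and the next TC mouse was at 15.3. The T mouse of array J was low for Ctsz, at 12.23 with the next T mouse at 12.48, and for Ctsd, at 14.07 with the next T mouse at 14.39.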

How the results depend on the processing

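No paired analysis was possible because replicate numbers, given within each array pairing, tie no mouse of one group to a mouse of another beyond the 2 mice of an array, which the ratio fit already compares. Features called in WTC minus WT numbered 6 in the ratio fit and 6850 in the separate-channel fit. Lysosomal genes called in WTC minus WT numbered 0 in the ratio fit, 18 without arrays I, J and K, 18 on slide 1 alone, 21 in the separate-channel fit, 19 with a slide term, 21 without array I and 18 with the channel 2 labels. In TC minus T they numbered 17 in the separate-channel fit, 12 with a slide term and 20 without array I. With single arrays left out, calls ranged between 0 and 16 (ratio fit) and 17 and 24 (separate-channel fit) in WTC minus WT, 0 and 0, and 1 and 21 in TC minus T, and 0 and 2 in the separate-channel TC minus WTC.

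Median ratios over the genes moved in these settings. Median centring gave 0.332 in WTC minus WT, where all features shifted by -0.105. TC minus T had 0.156 (channel 2 labels), 0.741 (slide 1), 0.778 (separate-channel, without array I) and 0.132 (separate-channel, channel 2 labels). On slide 1, TC minus WTC had 0.115 and the difference of lesion effects 0.216, and that difference was -0.481 in the separate-channel fit with channel 2 labels. Leaving out single arrays gave 0.436 to 0.628 and 0.526 to 0.655 (ratio and separate-channel fit) in WTC minus WT, 0.278 to 0.689 and 0.391 to 0.778 in TC minus T, -0.254 to 0.028 and -0.281 to -0.0639 in TC minus WTC, -0.278 to -0.0327 and -0.266 to -0.0442 for the difference, and -0.0697 to 0.119 and -0.0335 to 0.0735 in T minus WT.

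Signs turned for these genes, and the cause was not tested. Lipa turned in TC minus T, where the separate-channel fit had called it. Hexa, Tfeb and Ctsf also turned in TC minus T, but that fit had called them in WTC minus WT only. In WTC minus WT, median centring gave Idua -0.0451, Ids -0.189, Psap -0.12 and Cst3 -0.107, the mean of probes Gm2a -0.029, and the separate-channel fit Cst3 -0.0908 (-0.0913 without array I). In TC minus T, channel 2 labels gave Ctsf -0.13, Hexa -0.00216, Ids 0.369, Psap -0.0244, Lipa -0.0383 and Tfeb -0.131, leaving out arrays I, J and K gave Ctsf -0.27 and Ids 0.087, and slide 1 gave Gla 0.307, Mcoln1 0.0382 and Cst3 -0.338. Ctsf was -0.104 in the separate-channel fit, -0.0689 with a slide term and -0.253 without array I, where Idua was 0.14. The separate-channel fit with channel 2 labels gave Ctsf -0.264, Ids 0.107 and Tfeb -0.0688. With single arrays left out in either fit, WTC minus WT ran between -0.237 and 0.154 for Ids, -0.0662 and 0.294 for Gm2a, -0.0428 and 0.199 for Psap, and -0.284 and 0.216 for Cst3. TC minus T then ran between -0.253 and 0.18 for Ctsf and -0.189 and 0.174 for Idua.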
